A study of Mus musculus with 4 samples.

Results

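The genes described here are 8 regulators of mitochondrial biogenesis, out of 54464 gene rows in the deposited single-nucleus RNA-Seq (snRNA-Seq) count matrix of mouse liver. They were chosen by name, not by their values. All 8 were in the matrix and passed the filter on low counts in hepatocytes. The comparison was between 3 hepatocyte-specific Nampt knockout (HNKO) mice, which carry Nampt fl/fl and Alb-Cre +/−, and 3 floxed WT littermates without Cre, so that the floxed Nampt allele was shared by both groups. Per the labels the mice were of the C57BL6/BomTac strain. The study's methods describe female young adult mice on a purified control diet. The albumin promoter drives Cre in hepatocytes, so that other liver cells of an HNKO mouse are not the target of the deletion. Nuclei of each mouse were marked with a hashtag antibody and pooled, and the authors' table gives the mouse and a cluster name for each of 5193 nuclei.

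Mitochondria are built from proteins of both the nuclear and the mitochondrial genome, and their production is coordinated by a small set of nuclear genes. The coactivators PGC-1α and PGC-1β bind to transcription factors such as ERRα and NRF1 and raise the transcription of nuclear genes for respiration. In liver, PGC-1α is also known for its induction by fasting and glucagon and for its part in gluconeogenesis, whereas PGC-1β is tied to lipid metabolism. TFAM, POLRMT and TFB2M form the machinery that transcribes mitochondrial DNA, and the protease LONP1 clears damaged proteins, TFAM among them, from the matrix. NAD+, which NAMPT helps to make, is a cofactor of the deacetylase SIRT1 that acts on PGC-1α.

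The matrix held 629 to 1063 nuclei and 3766532 to 7763269 unique molecular identifiers (UMIs) per mouse. Hepatocytes made up 4410 nuclei, with 562 to 847 per mouse. All 5 markers of the hepatocyte, endothelial, stellate, Kupffer and cholangiocyte lists were highest in the nuclei of that name, as were 4 of 5 markers of CD45+ cells. HNKO mouse 3 stood apart. Its TMM factor, by which edgeR corrects for a shift in RNA composition, was 1.28 in hepatocytes, against 0.917 to 1.01 in the other mice. In HNKO mouse 3 the median gene of 100 kb or longer lay 0.22 below the mean of the other mice on the log2 scale (1843 genes), while the median gene of 10 to 30 kb lay 0.15 above it (3472 genes). Nampt, the targeted gene, stood at 92.2, 109 and 104 CPM in WT hepatocytes and at 92.3, 148 and 71.5 CPM in HNKO hepatocytes. Whether these reads lie outside the deleted part is not given in the sources used here, so that Nampt did not check the genotype labels.

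In hepatocytes no regulator passed the threshold for a genotype effect, and Ppargc1a stood apart from the rest by how much it varied between mice. It ranged 10.2-fold among the 3 HNKO mice and 1.99-fold among the WT mice. Ppargc1b and Tfb2m had the lowest HNKO to WT ratios, and Nrf1 was nearly even across all 6 mice. The levels below are UMI counts per 1000000 of the hepatocyte sum of each mouse after TMM (CPM), and fold changes are log2 of HNKO over WT from edgeR's quasi-likelihood test. With 3 mice a group, edgeR's p-values set the difference between groups against the spread between mice, estimated partly from all genes tested. Of 11810 genes tested, 0 were called at an adjusted p of 0.05 (0%), 698 had an unadjusted p under 0.05 (5.91%), and DESeq2 called 21 (0.178%). Among the 8 regulators 0 were called by edgeR, 1 had an unadjusted p under 0.05, and DESeq2 called 0. Their median log2 fold change was -0.098, against 0.019 over all genes tested. The adjusted p of edgeR ran from 0.820 to 0.966 over the 8 genes.

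Ppargc1a encodes PGC-1α and was counted deeply, with 18634 UMIs in hepatocytes. It was at 472, 666 and 941 CPM in WT mice 1, 2 and 3 and at 1186, 445 and 116 CPM in HNKO mice 1, 2 and 3. The highest and the lowest of the 6 values were both from HNKO mice, so that the WT range lay inside the HNKO range. Group means were 693 ± 235 and 582 ± 548 CPM in WT and HNKO mice for n = 3 each, with errors as SD. The log2 fold change was -0.25 (SE 0.70, 95% interval -1.86 to 1.36, adjusted p = 0.954, edgeR), and its sign depended on single mice. Without HNKO mouse 1 it was -1.30, without HNKO mouse 3 it was 0.24, and without WT mouse 3 it was 0.030. The biological coefficient of variation that edgeR estimated for Ppargc1a was 0.584, which was higher than for 98.5% of the genes tested, where the median was 0.233. The gene is longer than 100 kb (113.5 kb, chromosome 5, 51454250 to 51567726 in GRCm38, minus strand), as are Ppargc1b and Nrf1. The other regulators are 10.5 kb (Polrmt) to 18.2 kb (Tfb2m) long, in the range of 10 to 30 kb where the median gene of HNKO mouse 3 lay higher. The length trend of HNKO mouse 3 thus touches all 8 regulators, and its part in their values was not tested. 

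When nuclei were counted rather than UMIs, HNKO mouse 1 was again the highest in Ppargc1a and HNKO mouse 3 the lowest, while WT mouse 1 and HNKO mouse 2 changed places. After each hepatocyte nucleus had been thinned to 1000 UMIs, at least 1 Ppargc1a UMI was found in 27.9%, 41.7% and 47.5% of nuclei of WT mice 1, 2 and 3. In HNKO mice 1, 2 and 3 the shares were 54.3% (95% exact binomial interval 50.8% to 57.8%), 29.4% (26.3% to 32.7%) and 13.9% (11.7% to 16.4%). The intervals of the 3 HNKO mice did not overlap. They cover counting error only, since nuclei of 1 mouse are not replicates. Without thinning the shares were 64.1%, 73.1% and 82.8% in WT mice and 84.6%, 72.5% and 47.0% in HNKO mice, at a median of 3572 to 5786 UMIs per nucleus. At the same thinned depth a Ppargc1a UMI was found in 3.75% of 80 Kupffer nuclei (0.780% to 10.6%), from a median of 3088 UMIs, and in 2.73% of 110 cholangiocyte nuclei (0.566% to 7.76%), from a median of 4526 UMIs.

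Ppargc1b encodes PGC-1β and lies on chromosome 18 (61298136 to 61400431 in GRCm38, minus strand). It was at 206, 205 and 370 CPM in WT mice and at 187, 201 and 123 CPM in HNKO mice. All 3 HNKO values were below all 3 WT values, by as little as 201 against 205 CPM. Groups were separated in this direction for 610 of the 11810 genes (5.17%) and in the other for 758 (6.42%), and Ppargc1b was the 1 regulator of 8 with separated groups. Scaled to UMI totals alone, without TMM, Ppargc1b was at 190, 197 and 346 UMIs per 1000000 (UPM) in WT mice and at 170, 202 and 156 UPM in HNKO mice, and its groups overlapped, as did those of the other 7 regulators. The log2 fold change was -0.61 (SE 0.30, 95% interval -1.31 to 0.082, adjusted p = 0.820, edgeR). Without WT mouse 3, which had the highest value, it was -0.27. The share of thinned nuclei with a Ppargc1b UMI was 24.8% in WT mouse 3 (21.6% to 28.3%) and 14.4% to 18.4% in the other 5 mice. The coactivators did not go together in HNKO mouse 1. It had the highest Ppargc1a of all 6 mice and a Ppargc1b level under that of each WT mouse, as did the other HNKO mice for Ppargc1b after TMM.

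**Figure D1:**
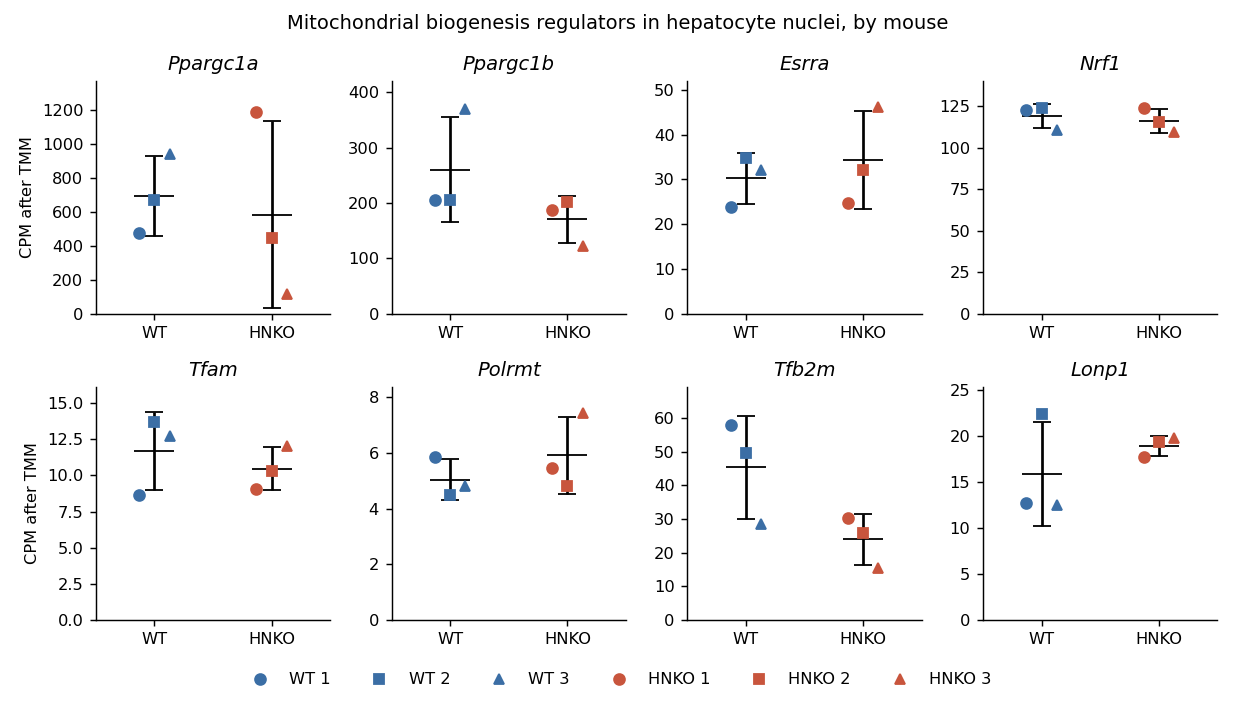
CPM after TMM of the 8 regulators in hepatocyte sums of each mouse (points, 1 per mouse), with the mean and SD of each genotype (black line and bars, n = 3). Ppargc1a spans 116 to 1186 CPM in HNKO mice and 472 to 941 CPM in WT mice, while Nrf1 lies between 109 and 124 CPM in all 6 mice.

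Esrra encodes the orphan nuclear receptor ERRα, a main partner of PGC-1α on the promoters of respiratory genes. The gene lies on chromosome 19 (6910977 to 6921813, minus strand). It was at 23.8, 34.7 and 32.2 CPM in WT hepatocytes and at 24.6, 32.1 and 46.1 CPM in HNKO hepatocytes. HNKO mouse 3 had the highest value, and the other 2 HNKO mice lay within the WT range. On the log2 scale the change was 0.18 (SE 0.27, adjusted p = 0.907, edgeR), and without HNKO mouse 3 it was -0.087. At 1000 UMIs per nucleus an Esrra UMI was found in 6.14% of nuclei of HNKO mouse 3 (4.62% to 7.97%) and in 2.46% to 4.91% in the other mice. HNKO mouse 3, the mouse with the lowest Ppargc1a, was therefore the one with the highest Esrra on both scales.

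Nrf1 encodes nuclear respiratory factor 1, which binds a palindromic GC-rich motif in the promoters of genes for respiration and mitochondrial DNA transcription. The gene lies on chromosome 6 (30047988 to 30153458, plus strand). It was at 123, 124 and 111 CPM in WT mice and at 124, 115 and 109 CPM in HNKO mice. The groups overlapped and the highest of the 6 values was 1.13 times the lowest. Its log2 fold change was -0.036, with the narrowest 95% interval of the 8 regulators, -0.39 to 0.32 (SE 0.15, adjusted p = 0.966, edgeR). Its coefficient of variation, 0.187, was lower than that of most genes, at the 9.26th percentile.

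The promoters of some regulators hold the NRF1 motif, and 3 of these are shown to place it. RefSeq promoters of GRCm38.p6 (250 bases before to 50 after the start) were found for 7 of the 8 regulators. The core CGCANGCG was searched on both strands. It was present in the windows of Nrf1, Esrra, Polrmt and Tfb2m, which is 4 of 7, and in 8.21% of all 32851 promoters of the same length. An ETS core (CCGGAAG) was found in Tfam and Polrmt, which is 2 of 7, against 8.86% of all promoters. The GC box GGGCGG was in 5 of 7 regulators and in 35.7% of all promoters. A regulator was counted if any of its windows matched. Nrf1 had 2 windows, and its downstream one held no match, whereas the shares of all promoters count each window. GC content of the windows ran from 46.3% to 77.0%, and its part in the matches was not tested. The ERR element TNAAGGTCA (1.28% of all promoters) and the cAMP response element TGACGTCA (1.79%) were not found in any window of the 7 regulators. For Ppargc1a the window searched lies at the 5′ end of the gene (51567676 to 51567975). Starts further inside that gene were not searched, so that their elements are not known from this search. The 250 bases before the start are given below for Nrf1 (the upstream one of its 2 RefSeq starts), Esrra and Polrmt, with motif matches in capitals. In Polrmt an overlapping pair of NRF1 cores begins at the last 5 bases shown and runs past the start.
Nrf1 (chr6:30047738-30047987, plus strand): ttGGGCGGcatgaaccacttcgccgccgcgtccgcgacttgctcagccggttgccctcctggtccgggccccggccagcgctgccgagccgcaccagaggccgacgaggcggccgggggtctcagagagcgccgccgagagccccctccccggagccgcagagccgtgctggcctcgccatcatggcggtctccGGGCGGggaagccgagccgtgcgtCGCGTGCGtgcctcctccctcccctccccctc
Esrra (chr19:6921809-6922058, minus strand): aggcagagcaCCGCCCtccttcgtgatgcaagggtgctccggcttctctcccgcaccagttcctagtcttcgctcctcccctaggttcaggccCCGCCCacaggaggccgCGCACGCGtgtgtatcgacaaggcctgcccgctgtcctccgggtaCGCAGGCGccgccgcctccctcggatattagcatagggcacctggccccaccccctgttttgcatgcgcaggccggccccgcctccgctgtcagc
Polrmt (chr10:79746582-79746831, minus strand): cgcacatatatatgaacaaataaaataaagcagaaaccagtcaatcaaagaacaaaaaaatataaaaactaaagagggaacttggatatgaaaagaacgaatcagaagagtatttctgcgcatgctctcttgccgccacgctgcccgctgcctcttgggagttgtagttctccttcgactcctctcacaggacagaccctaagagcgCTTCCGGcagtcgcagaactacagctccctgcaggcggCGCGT

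The 3 genes of mitochondrial DNA transcription did not share a direction. Tfam and Polrmt both lie on chromosome 10 (71225464 to 71238280 and 79736123 to 79746581, minus strand), and Tfb2m lies on chromosome 1 (179528055 to 179546267, minus strand). Tfam encodes the factor that bends and packages mitochondrial DNA, and was at 8.64, 13.7 and 12.7 CPM in WT and at 9.10, 10.3 and 12.0 CPM in HNKO mice. All 3 HNKO values were inside the WT range. Polrmt, the mitochondrial RNA polymerase, was at 5.86, 4.47 and 4.81 CPM in WT and at 5.46, 4.83 and 7.45 CPM in HNKO mice. HNKO mouse 3 was highest, and its Polrmt value rests on 52 UMIs, out of 170 in all 6 mice. The log2 fold changes were -0.16 for Tfam (95% interval -0.73 to 0.41) and 0.24 for Polrmt (-0.42 to 0.89).

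Tfb2m encodes the factor that melts the promoter of mitochondrial DNA for the polymerase. It was at 58.0, 49.7 and 28.4 CPM in WT mice and at 30.4, 25.8 and 15.5 CPM in HNKO mice. Of the 3 WT mice, 2 were above all HNKO mice, while WT mouse 3 lay between HNKO mice 1 and 2. The means were 45.4 ± 15.3 and 23.9 ± 7.65 CPM (SD, n = 3 each). For Tfb2m the log2 fold change was -0.92 (SE 0.33, 95% interval -1.69 to -0.15), with an unadjusted p of 0.024 and an adjusted p of 0.820 from edgeR. When single mice were left out it was -1.18 to -0.68. Tfb2m was the 1 regulator under an unadjusted 0.05, where 5.91% of all genes lay. In thinned nuclei the Tfb2m share was 6.94%, 3.93% and 2.44% in WT mice and 2.34%, 2.56% and 1.89% in HNKO mice, so that WT mouse 3 was within the HNKO shares.

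Lonp1, the matrix protease (chromosome 17, 56614297 to 56626887, minus strand), was at 12.6, 22.4 and 12.5 CPM in WT mice and at 17.7, 19.3 and 19.8 CPM in HNKO mice. The 3 HNKO mice were close to each other and lay within the WT range. Its log2 fold change was 0.26 (95% interval -0.35 to 0.86, adjusted p = 0.857, edgeR).

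Without TMM, when hepatocyte sums were scaled to UMI totals alone, HNKO mouse 3 was the highest of the 6 mice for 5 of the 8 regulators (Esrra, Nrf1, Tfam, Polrmt and Lonp1), against 2 of 8 after TMM (Esrra and Polrmt). This scaling raised the median log2 fold change of all genes by 0.18, and the signs of Tfam and Nrf1 turned to 0.034 and 0.13.

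**Figure D2:**
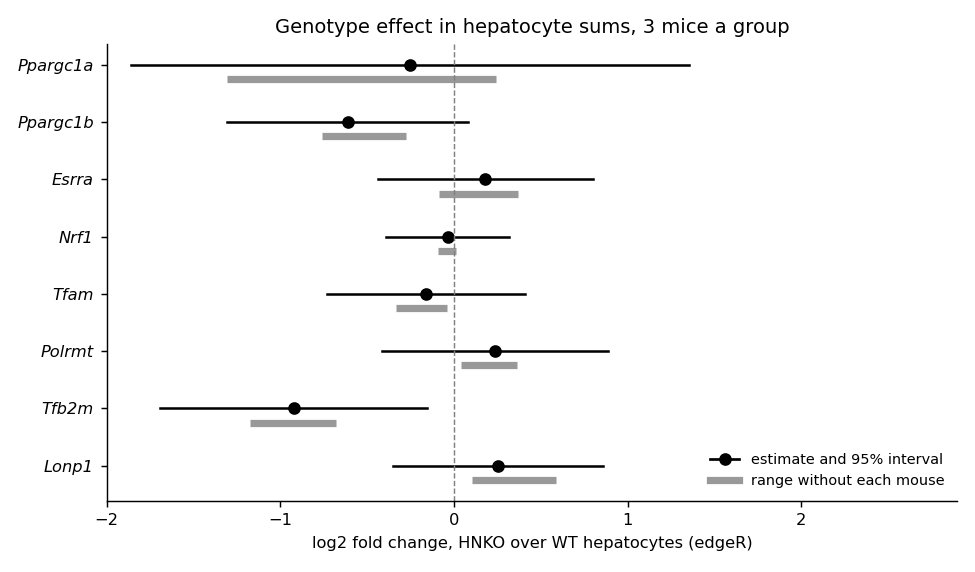
Log2 fold change of HNKO over WT hepatocytes for the 8 regulators from edgeR (black points) with 95% intervals (black lines), and the range of the fold change when each of the 6 mice is left out in turn (grey bars). The interval of Tfb2m, -1.69 to -0.15, leaves out 0 before adjustment over 11810 genes, and the grey bars of Ppargc1a, Esrra and Nrf1 cross 0.

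Genes that work with the regulators were examined by list. Each gene named from a list was picked because its WT and HNKO values did not overlap. That separation is therefore given by the choice. Of 25 tested partners and upstream regulators of PGC-1, 0 were called, 1 had an unadjusted p under 0.05 in each direction, and the median log2 fold change was -0.014. In this list 3 genes (12.0%) had all HNKO values above all WT values and 1 (4.0%) had all below. Over all genes tested the shares were 6.42% and 5.17%. Rnf34, an E3 ligase known to act on PGC-1α, was at 3.39, 5.52 and 6.49 CPM in WT and at 7.44, 10.6 and 14.0 CPM in HNKO mice, with no overlap (log2 fold change 1.045, SE 0.34, adjusted p = 0.820, edgeR). Gabpb2, a subunit of the ETS factor GABP, was at 82.0 to 85.8 CPM in WT and 88.3 to 119 CPM in HNKO mice. Yy1, a transcription factor that works with PGC-1α, was at 78.8 to 85.4 and 76.4 to 78.0 CPM.

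Of 16 tested PGC-1 target genes, 12 had a negative log2 fold change and the median was -0.21, with 0 called and 0 under an unadjusted 0.05. Over all genes 5626 of 11810 were negative. Of the targets 2 (12.5%) had all HNKO values below all WT values and 0 had all above, against 5.17% and 6.42% of all genes tested. Pck1, a rate-limiting enzyme of gluconeogenesis, was at 3457, 3627 and 3273 CPM in WT mice and at 2633, 2980 and 403 CPM in HNKO mice. All HNKO values were below all WT values, and HNKO mouse 3, which had the lowest Ppargc1a, was far below the other 5 mice. The hepatocyte marker Cps1 was low in HNKO mouse 3 too, at 3366 CPM against 13977 to 19467 CPM in the other mice. Whether these levels are linked was not tested. HNKO mouse 1, with the highest Ppargc1a, did not have a Pck1 level above WT.

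In the lists of mitochondrial function 0 genes were called as well. The median log2 fold change was 0.047 over 13 genes of mitochondrial DNA replication, 0.061 over 22 of mitochondrial transcription and RNA processing, 0.0024 over 19 proteases and chaperones, -0.16 over 13 import genes, -0.0094 over 65 mitochondrial ribosomal proteins, and -0.082 over 13 genes of dynamics and mitophagy. All HNKO values lay below all WT values for 3 import genes (23.1%), 2 of dynamics and mitophagy (15.4%) and 1 of transcription and RNA processing (4.55%). They lay above for 1 import gene and 1 replication gene (7.69% of each list). Proteases and chaperones had 0 in both directions. Over all genes tested the shares were 5.17% below and 6.42% above, and the genes named here were picked from the separated ones. Mpv17, needed to keep mitochondrial DNA, was at 6.31 to 7.45 CPM in WT and 9.10 to 13.2 CPM in HNKO mice. Bnip3l, a receptor of mitophagy, was at 34.2 to 50.9 and 26.3 to 29.6 CPM, and Mfn2, which fuses outer membranes, was at 39.7 to 46.9 and 27.3 to 39.6 CPM. Of the import genes Tomm20 was at 14.7 to 15.9 CPM in WT and 16.0 to 21.5 CPM in HNKO mice, Timm23 at 57.1 to 67.1 and 33.1 to 55.7 CPM, and Gfer at 2.47 to 4.74 and 2.16 to 2.44 CPM. Fastkd1, a mitochondrial RNA-binding protein, was at 19.5 to 26.5 and 16.0 to 18.6 CPM. Among the 65 ribosomal proteins 3 genes (4.62%), Mrps2 and Mrps18a among them, were higher in all HNKO mice than in all WT mice, and 3 (4.62%), Mrpl2 and Mrps17 among them, were lower, against 6.42% and 5.17% of all genes tested. All 13 mitochondrially encoded genes had a negative log2 fold change, with a median of -0.38 and 0 under an unadjusted 0.05. ND3 was at 21.6 to 29.0 CPM in WT and 13.2 to 20.01 CPM in HNKO mice and was the 1 gene of the 13 (7.69%) with all HNKO values below all WT values, against 5.17% of all genes tested. Transcripts of the mitochondrial genome are made outside the nucleus, and in a nuclear preparation they are carried over.

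Across liver cell types the coactivators and Nrf1 were distributed in opposite ways. Levels by cell type are in UPM, the UMIs per 1000000 of the plain sum of each mouse without TMM, for sums of at least 10 nuclei. In sums, fewer nuclei that express a gene and less RNA per nucleus cannot be told apart. Ppargc1a was 605 ± 337 UPM (SD, n = 6) in hepatocytes, 172 ± 94.1 in CD45+ cells (n = 5), 159 ± 87.8 in endothelial cells (n = 6), 85.5 ± 12.995 in cholangiocytes (n = 3, all HNKO), 54.0 ± 43.4 in stellate cells (n = 6) and 28.4 ± 23.01 in Kupffer cells (n = 3, all HNKO). Hepatocytes were higher than each other type in every mouse that had both, although its range over mice (147 to 1081) overlapped that of CD45+ cells (79.7 to 322). Of the neighbours in this order, endothelial cells (101 to 334) and cholangiocytes (73.0 to 98.99) did not overlap, and the other pairs did. Endothelial cells were lower than hepatocytes in all 6 mice for 599 of 2563 genes tested in both types (23.4%).

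In endothelial sums of 5 of 6 mice, Ppargc1a and hepatocyte markers stood at similar percentages of their hepatocyte levels. The 5 hepatocyte markers Alb, Apob, Cps1, Ttr and Hnf4a, summed, stood in endothelial sums at 22.2%, 27.2% and 15.0% of the hepatocyte level of the same WT mouse and at 31.1%, 29.3% and 37.4% in HNKO mice. Ppargc1a stood there at 23.3%, 24.1% and 12.6% in WT mice and at 30.9%, 29.1% and 82.9% in HNKO mice. The percentages of gene and markers were within 4 points of each other in 5 of 6 mice, and HNKO mouse 3, whose hepatocytes had the lowest Ppargc1a, was the exception. In CD45+ sums the markers stood at 29.1% to 48.4% and Ppargc1a at 18.3% to 54.2%. In Kupffer cells of HNKO mouse 1 Ppargc1a stood at 0.900% while the markers stood at 8.90%. The part of hepatocyte RNA in the endothelial and CD45+ values was not tested.

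Ppargc1b was 210 ± 68.8 UPM in hepatocytes (n = 6), 117 ± 18.99 in Kupffer cells (n = 3), 110 ± 46.4 in CD45+ cells (n = 5), 51.4 ± 19.8 in endothelial cells (n = 6), 27.6 ± 3.18 in cholangiocytes (n = 3) and 21.6 ± 18.6 in stellate cells (n = 6). Hepatocytes were again highest in each mouse, with a range (156 to 346) above that of Kupffer cells (97.3 to 135), and all later neighbours in this order overlapped. In Kupffer cells Ppargc1b stood at 57.1%, 66.9% and 75.3% of the hepatocyte level of HNKO mice 1, 2 and 3, against 8.90%, 7.60% and 28.3% for the summed hepatocyte markers, whereas Ppargc1a stood at 0.900%, 12.1% and 14.5%. The percentage of Ppargc1b in Kupffer cells was thus above that of the hepatocyte markers in all 3 mice. The Kupffer sums of these 3 mice rest on 26 Ppargc1b UMIs and 5 Ppargc1a UMIs over 64 nuclei.

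Nrf1 was lowest in hepatocytes, at 117 ± 11.8 UPM (n = 6). It was 229 ± 40.2 in CD45+ cells (n = 5), 186 ± 36.4 in cholangiocytes (n = 3), 178 ± 42.0 in endothelial cells (n = 6), 171 ± 26.8 in stellate cells (n = 6) and 154 ± 83.6 in Kupffer cells (n = 3). Stellate cells were above hepatocytes in 6 of 6 mice, CD45+ cells in 5 of 5, cholangiocytes in 3 of 3, endothelial cells in 5 of 6 and Kupffer cells in 2 of 3. In both exceptions the mouse was HNKO mouse 2. The range of hepatocytes (103 to 139) did not overlap those of stellate cells (142 to 210), cholangiocytes (150 to 223) and CD45+ cells (172 to 275). It overlapped those of endothelial cells (103 to 221) and Kupffer cells (81.1 to 245). The ranges of the non-hepatocyte types overlapped each other. Of 2069 genes tested in both types, 759 (36.7%) were higher in stellate cells than in hepatocytes in all 6 mice and 390 (18.8%) were lower. For endothelial cells 1052 of 2563 (41.0%) were higher. A higher level in these types is thus common among genes detected there.

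The ranges of Esrra over mice overlapped for every pair of types other than Kupffer cells (38.9 to 108) and cholangiocytes (0 to 36.6). It was 33.1 ± 13.4 UPM in hepatocytes (n = 6), 45.1 ± 13.8 in CD45+ cells (n = 5), 63.3 ± 39.0 in Kupffer cells (n = 3, 12 UMIs in all), 28.3 ± 14.7 in endothelial and 18.9 ± 20.7 in stellate cells (n = 6 each), and 21.2 ± 19.0 in cholangiocytes (n = 3). Tfb2m was 33.5 ± 13.6 in hepatocytes (n = 6). Set against hepatocytes of the same mouse, it was lower in 5 of 6 mice in endothelial cells (12.6 ± 10.8, on 13 UMIs) and in stellate cells (10.2 ± 12.3, on 7 UMIs). It was lower in 3 of 5 in CD45+ cells (28.5 ± 8.47, on 16 UMIs) and in 2 of 3 in cholangiocytes (24.8 ± 22.5, on 9 UMIs). In Kupffer cells it was higher in 3 of 3 (29.4 ± 2.49, on 7 UMIs). At these counts an order of Tfb2m among the other types could not be read. Tfam, Polrmt and Lonp1 rested on 1 to 20 UMIs in each other type, over all mice, so that an order of levels could not be read at this depth. For Polrmt in stellate cells, 2 UMIs were counted in 690616.

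**Figure D3:**
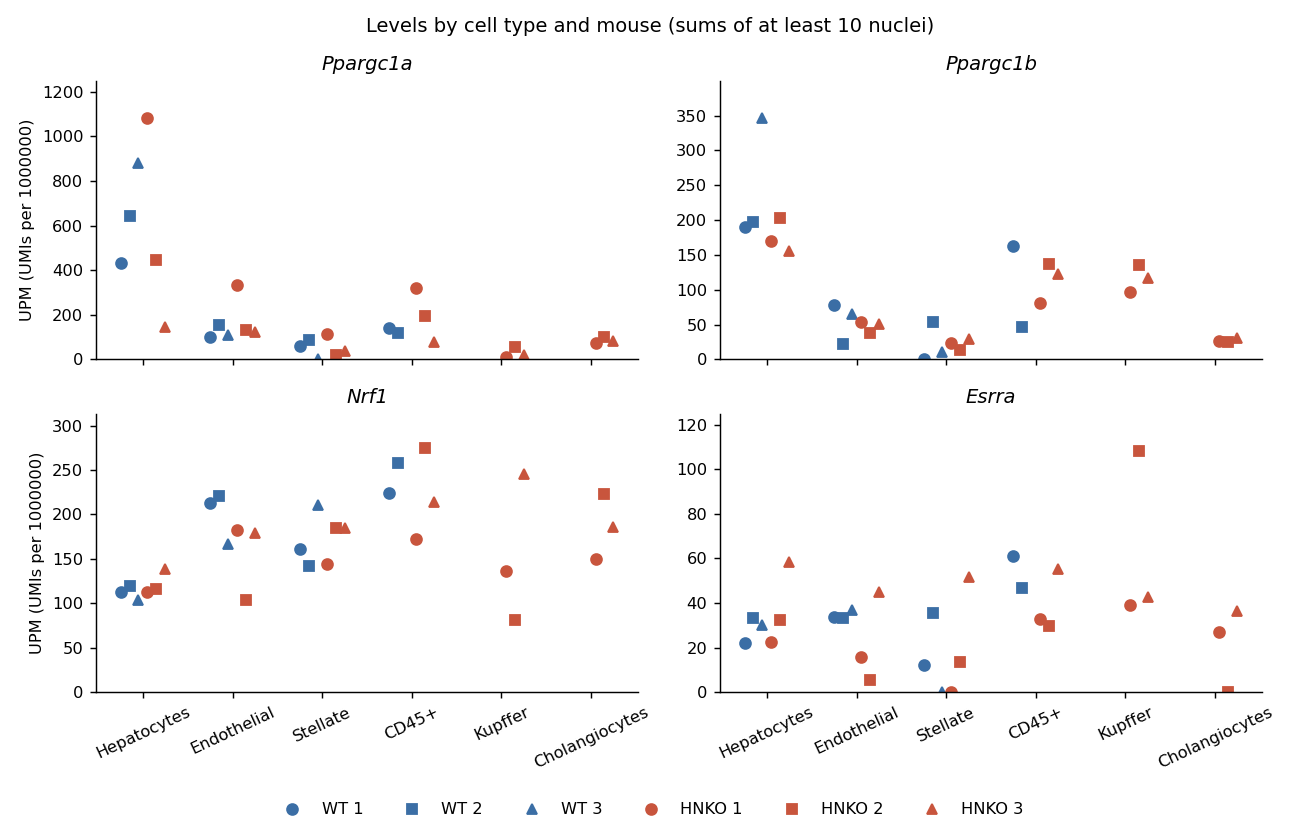
UPM of Ppargc1a, Ppargc1b, Nrf1 and Esrra in each cell type, 1 point per mouse, for sums of at least 10 nuclei. Both coactivators are highest in hepatocytes in every mouse, while 5 of 6 endothelial and 6 of 6 stellate points of Nrf1 lie above the hepatocyte point of the same mouse.

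Few regulators could be tested for genotype outside hepatocytes. In endothelial cells 2743 genes passed the filter, with 0 called by edgeR (0%) and 104 under an unadjusted p of 0.05 (3.79%), and DESeq2 called 1. Ppargc1a and Nrf1 were among the genes tested. Ppargc1a was at 124, 192 and 136 CPM in WT and at 410, 160 and 148 CPM in HNKO endothelial sums, and HNKO mouse 1 alone was above the WT range. The log2 fold change was 0.73 (SE 0.43, 95% interval -0.22 to 1.67, adjusted p = 0.996, edgeR). It was 0.040 without HNKO mouse 1, the mouse whose hepatocytes also had the most Ppargc1a. The endothelial sum of that mouse held 106 Ppargc1a UMIs, from 13 of 71 nuclei without thinning (18.3%). The share was 13.8% to 26.9% in WT mice and 19.6% and 21.4% in HNKO mice 2 and 3. The share of endothelial nuclei with a Ppargc1a UMI was thus not higher in HNKO mouse 1. Nrf1 was at 261, 274 and 204 CPM in WT and at 225, 126 and 218 CPM in HNKO endothelial sums (log2 fold change -0.36, SE 0.31, adjusted p = 0.996, edgeR). In stellate cells 2266 genes passed, with 0 called by edgeR (0%), 160 under an unadjusted 0.05 (7.06%) and 1 called by DESeq2, and Nrf1 was the 1 regulator among them. It was at 207, 176 and 266 CPM in WT and at 180, 232 and 230 CPM in HNKO mice (log2 fold change -0.044, 95% interval -0.75 to 0.67, edgeR). Neither DESeq2 call was a regulator.

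Within hepatocytes Ppargc1b was higher in the clusters named Periportal than in those named Central. The authors named 13 hepatocyte clusters, among them Central and Periportal ones. The pericentral markers Glul, Slc1a2, Cyp2e1, Lgr5 and Oat were higher in Central clusters in 6 of 6 mice, and the periportal markers Sds, Hal, Cyp2f2 and Gls2 were lower in 6 of 6. Pck1, also on the periportal list, did not separate the zones. It was lower in Central clusters in 3 mice and higher in 3, with ratios of 0.646 to 1.11. Since the clusters were drawn from the same counts, the levels that follow are a description. Ppargc1b was at 267, 431 and 261 UPM in Periportal 1, 2 and 3, and at 139, 72.4 and 94.8 in Central 1, Central HNKO 1 and Central HNKO 2. In the remaining clusters it ran from 125 in Hepatocytes 4, below Central 1, to 280 in Hepatocytes 3, above Periportal 1 and 3. The 95% Poisson intervals of the 3 Periportal clusters (234 at the lowest) lay above those of the 3 Central clusters (162 at the highest). These intervals cover counting error only. Periportal 2 drew 99.2% of its nuclei from WT mouse 3, and Central HNKO 2 drew all from HNKO mouse 3. Zone and mouse are thus mixed in the pooled clusters.

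The lower Ppargc1b of Central clusters was seen within mice too. In Central nuclei, of which each mouse had 39 to 100, Ppargc1b was 0.757, 0.371 and 0.669 of its level in the other hepatocytes of WT mice 1, 2 and 3. In HNKO mice 1, 2 and 3 the ratio was 0.381, 0.455 and 0.588. All 6 mice were thus lower in Central nuclei, as were 1332 of 11810 genes (11.3%), and 574 genes (4.86%) were higher in all 6. Ppargc1b was the 1 regulator of 8 with the same direction in all 6 mice. Against Periportal clusters alone, which held at least 10 nuclei in 4 mice, the ratio was 0.560, 0.285 and 0.547 in WT mice and 0.359 in HNKO mouse 2.

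Ppargc1a did not share this direction in every mouse. The Central to other ratio was 0.651, 0.860 and 0.722 in WT mice and 0.600 in HNKO mouse 2, but 1.21 and 1.15 in HNKO mice 1 and 3. The WT mice and HNKO mouse 2 were below 1 and the other 2 HNKO mice above it. These 2 mice had few Periportal nuclei (4 and 1), and nearly all their hepatocytes were in clusters of their own. Cluster HNKO 1 drew 99.1% of its nuclei from HNKO mouse 1, and clusters HNKO 2 and HNKO 3 drew 97.0% and 99.0% from HNKO mouse 3. Ppargc1a was at 1065 UPM in cluster HNKO 1 and at 161 and 120 in clusters HNKO 2 and HNKO 3. In the Central clusters of the same mice it was at 1295 (Central HNKO 1, 98.9% from HNKO mouse 1) and 168 (Central HNKO 2, all from HNKO mouse 3). The level of Ppargc1a went with the mouse in both zones. In Hepatocytes 1 to 4 and Periportal 1 to 3 it ran from 406 in Hepatocytes 4 to 1008 in Periportal 2, and the 2 highest of these, Periportal 2 and Hepatocytes 3 (811), drew 99.2% and 97.7% of their nuclei from WT mouse 3.

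**Figure D4:**
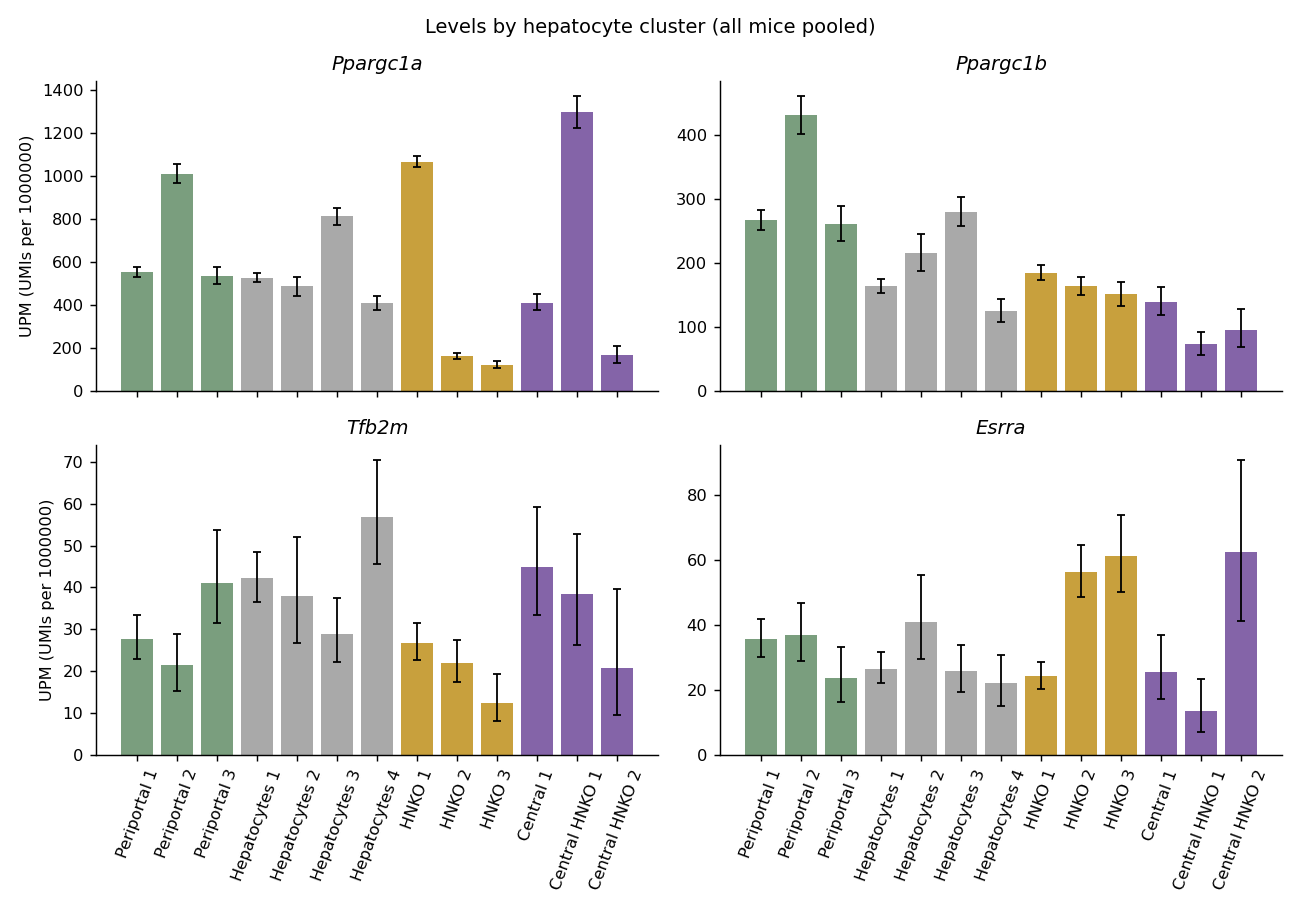
UPM of Ppargc1a, Ppargc1b, Tfb2m and Esrra in the 13 hepatocyte clusters with all mice pooled, with 95% Poisson intervals that cover counting error only. Periportal clusters are green, Hepatocytes clusters grey, HNKO clusters yellow and Central clusters purple. Ppargc1b is above 260 in the 3 Periportal clusters, at most 139 in the 3 Central ones, and at 280 and 125 in Hepatocytes 3 and 4. Ppargc1a is highest in Central HNKO 1 and HNKO 1.

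Tfb2m and Nrf1 each had the same direction between zones in 5 of 6 mice. Tfb2m was 1.84, 1.19 and 0.917 times as high in Central nuclei as in other hepatocytes of WT mice 1, 2 and 3, and 1.44, 1.04 and 1.07 times in HNKO mice 1, 2 and 3. It was higher in 5 of 6 mice, on 7 to 34.5 Central UMIs per mouse. Nrf1 was lower in 5 of 6 mice, with ratios of 0.693 to 1.01. Esrra was lower in Central nuclei in the 3 WT mice (0.688, 0.553 and 0.219) and in HNKO mouse 1 (0.497) and higher in HNKO mice 2 and 3 (1.67 and 1.07), and the WT ratios rested on 2 to 4 Central UMIs each. Tfam and Polrmt had 22 and 11 Central UMIs in all, and Lonp1 had 49.4, too few for an order.

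**Figure D5:**
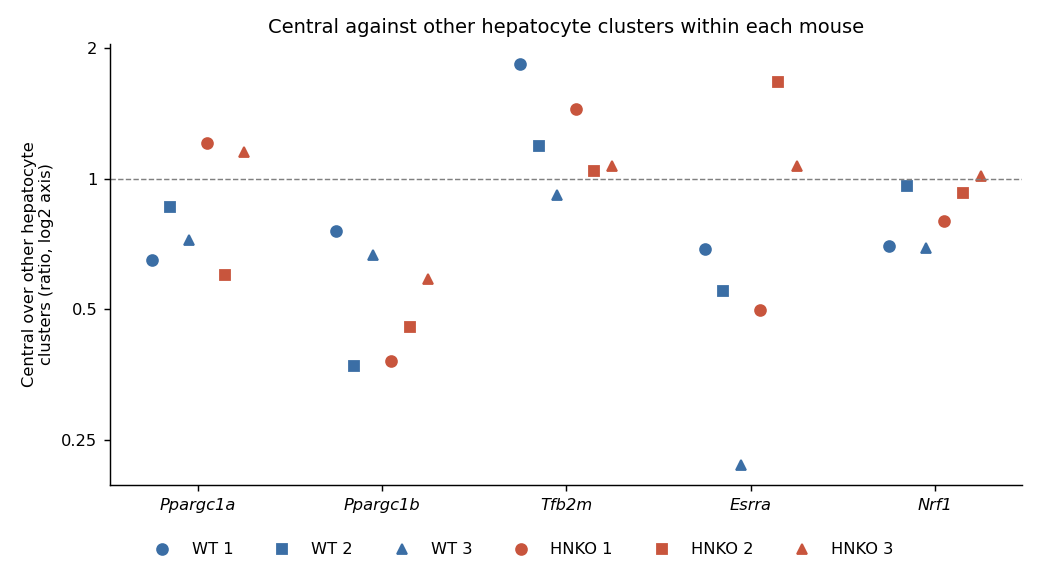
Ratio of the level in Central clusters to that in all other hepatocyte clusters of the same mouse (log2 axis, 1 point per mouse, dashed line at 1) for the 5 regulators with more than 50 Central UMIs. All 6 points of Ppargc1b lie between 0.371 and 0.757, while those of Ppargc1a run from 0.600 to 1.21.

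Over the 13 hepatocyte clusters, the genes most like each regulator were sought among 5307 genes of at least 20 UPM, by Pearson's r on a log2 scale with a pseudocount of 1. Most clusters are nearly all from 1 mouse, so that the 13 points share mice and depth and r is a description. The genes most like Ppargc1a were Wbp1l (r = 0.977), Baiap2l1 (0.959) and Jmjd1c (0.957), and those most like Ppargc1b were Togaram1 (0.931) and Nrg4 (0.930). Pdlim5 (0.863) and Acsl1 (0.862) were among the 3 genes most like Tfb2m. Esrra was most like Swi5 (0.972) and Mms19 (0.967), and Nrf1 was most like Uhrf1bp1l (0.911), Riok3 (0.909) and Etnk1 (0.909). Among the regulators themselves, r was 0.278 between Ppargc1a and Ppargc1b, -0.796 between Ppargc1a and Esrra, and 0.794 between Esrra and Nrf1. Lonp1, Tfam and Polrmt were too low for this comparison.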

How the data were processed

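The data were snRNA-Seq (10x Genomics 3′ chemistry) of liver nuclei from 6 mice, deposited as pools. Per the labels, reads were processed with Cell Ranger 5.0.1 and Alevin on GRCm38. The authors deposited estimated counts (spliced and unspliced UMIs) per gene and nucleus, after their filters on hashtags and detected genes, with mouse, genotype and cluster. Of the nonzero values 10.1% were not whole (tolerance 0.001). No doublet caller was run. Normalized and hashtag matrices were not used.

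UMIs of each mouse were added up by cell type (at least 10 nuclei), rounded, and tested with edgeR 4.0.16 in R 4.3.3 (filterByExpr, TMM, quasi-likelihood F test, genotype alone, two-sided, Benjamini-Hochberg threshold 0.05). DESeq2 1.42.0 and further alternatives were run. Hepatocyte sums held 3524052 to 6634851 UMIs, endothelial sums 89035 to 317339 and stellate sums 56470 to 172676. Poisson and binomial intervals are exact, of 95%, for counting error. From each list, at most 2 genes per direction were named, those with the largest fold change among genes without overlap between groups, and for regulators with at least 500 hepatocyte UMIs the 3 most alike genes. Some of the genes so chosen are not reported here. The regulators, lists and tests were chosen with earlier results of these data known. Genes were placed with GENCODE M21. Mouse numbers follow the hashtag names.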

Additional observations from a re-analysis of the deposited data

How the results depend on the processing

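The count of 0 genes called in hepatocytes was kept with RLE size factors, with UMI totals alone (added after seeing the data), with all nuclei, with equal nuclei per mouse and without Central clusters. It was 21 with DESeq2, 35 without a filter on low counts, and 0 to 32 when single mice were left out, with 32 without HNKO mouse 2. In endothelial cells it was 1 with DESeq2 and 16 without a filter. In stellate cells it was 1 with DESeq2, 29 without a filter, and 0 to 47 when single mice were left out, with 1 without WT mouse 2 and 47 without HNKO mouse 2. The causes were not tested. No regulator was called under any of these, and the lowest adjusted p, 0.371, was that of Tfb2m.

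The hepatocyte log2 fold change of Ppargc1a ran from -1.30 to 0.24 when single mice were left out, and was positive without WT mouse 3 (0.030) and without HNKO mouse 3 (0.24). That of Esrra ran from -0.087 to 0.37 and that of Nrf1 from -0.090 to 0.014, and each turned without HNKO mouse 3. With UMI totals alone Tfam turned to 0.034 and Nrf1 to 0.13. In stellate cells Nrf1 turned from -0.044 to 0.013 without a filter and to 0.057 with UMI totals alone. It ran from -0.20 to 0.11 when single mice were left out, and was positive without WT mouse 3 and without HNKO mouse 1 (0.075). The cause of each turn was not tested. The endothelial level of Ppargc1a, on average 33.8% ± 24.9 (SD, n = 6) of the hepatocyte level, was 32.5% with hepatocytes thinned to endothelial depth and 19.99% in WT mice alone.

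No paired analysis was possible because the numbers in the labels mark pools, each of which holds nuclei of all mice, and no number links a WT to an HNKO mouse. Precision was limited by 3 mice a group and, outside hepatocytes, by sums of at most 354726 UMIs.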
